A study of Homo sapiens with 6 samples.

Results

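The outermost megabase of each human autosome arm was examined for CpG methylation in PC-3, an established line of human prostate carcinoma cells. A CpG belonged to a chromosome end when it lay at position 1000000 or lower, or within 1000000 bases of the largest position that any library listed for that chromosome. Of 336571 CpGs with at least 10 reads in every library, 23283 (6.92%) met this rule. They came from 39 of the 44 autosome ends, 17 on p arms and 22 on q arms, with 51 to 1757 CpGs per end. No CpG was listed within the outermost megabase of the short arms of chromosomes 13, 14, 15, 21 and 22. Distance was counted from the first base numbered in hg19 on p arms and from the last listed CpG on q arms, and the telomere repeat itself was not measured. The rule used position alone and no methylation value. The comparison set was a belt 2 to 10 Mb inward from the same ends, with 69064 CpGs.

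The study treated PC-3 cells with 160 µM S-adenosylmethionine (SAM), the methyl donor of the DNA methyltransferases, for 5 days in 3 libraries, and with PBS, the vehicle, for the same time in 3 control libraries. Only 1 cell line was used. Nothing in the labels says whether replicates came from separate cultures, so p-values measure the spread between these libraries, which may be technical. Coverage summed over listed positions was 33056018 to 183523792 per library, where a read counts at each position it covers. At the end CpGs the median was 117, 43 and 145 reads in SAM libraries 1, 2 and 3, and 158, 38 and 137 reads in control libraries 1, 2 and 3. At the belt CpGs the medians were 109, 41 and 144 reads in the SAM libraries, and 148, 37 and 128 reads in the controls. Reads copied in amplification cannot be told from separate molecules, so read numbers overstate the precision.

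Human chromosome ends carry a tract of telomere repeats, then subtelomeric DNA shared in part between chromosomes, and then unique sequence that is often rich in genes and in CpG islands. Subtelomeric CpGs next to the repeats are methylated largely by DNMT3B, and CpG-rich promoters there drive the telomeric repeat RNA called TERRA. In mammalian genomes most isolated CpGs are methylated, while CpG islands at active or poised promoters are mostly free of methylation.

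The following promoters of end genes, each 300 bases long, show the range of states that the ends held. They run from 250 bases before to 50 bases after the annotated start, are RefSeq sequences of GRCh38.p14 written 5′ to 3′ on the strand of the gene, and carry in capitals the CpGs read at least 10 times in all 6 libraries. Each was placed on hg19 by matching the spacing of its CpGs to the listed positions. SOX12, a transcription factor gene of the 20p end at chr20:305946-306245 (plus strand), stands for the unmethylated promoters. DRD4, which encodes a dopamine receptor, lies in the 11p end at chr11:637019-637318 (plus strand). SLC9A3, which encodes a sodium-proton exchanger of gut and kidney epithelium, lies in the 5p end at chr5:524515-524814 (minus strand). UTF1, a chromatin-bound factor of embryonic stem cells, lies in the 10q end at chr10:135043471-135043770 (plus strand). DRD4, SLC9A3 and UTF1 stand for promoters whose single CpGs differed widely in level. CETN1, which encodes a centrin found in male germ cells, lies in the 18p end at chr18:580130-580429 (plus strand) and stands for the methylated promoters; it was chosen after its values were seen.
SOX12: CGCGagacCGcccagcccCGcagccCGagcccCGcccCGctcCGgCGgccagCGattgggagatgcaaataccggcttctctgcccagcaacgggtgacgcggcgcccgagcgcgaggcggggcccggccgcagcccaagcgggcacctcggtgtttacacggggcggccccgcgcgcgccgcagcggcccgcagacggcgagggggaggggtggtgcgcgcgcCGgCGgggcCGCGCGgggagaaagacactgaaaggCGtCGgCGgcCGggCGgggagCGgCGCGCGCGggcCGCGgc
DRD4: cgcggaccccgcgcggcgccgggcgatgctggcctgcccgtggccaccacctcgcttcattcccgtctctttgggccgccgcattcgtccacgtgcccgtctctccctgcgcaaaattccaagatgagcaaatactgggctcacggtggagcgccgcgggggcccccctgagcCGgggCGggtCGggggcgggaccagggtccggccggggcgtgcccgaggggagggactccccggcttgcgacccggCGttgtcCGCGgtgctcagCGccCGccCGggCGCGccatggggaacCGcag
SLC9A3: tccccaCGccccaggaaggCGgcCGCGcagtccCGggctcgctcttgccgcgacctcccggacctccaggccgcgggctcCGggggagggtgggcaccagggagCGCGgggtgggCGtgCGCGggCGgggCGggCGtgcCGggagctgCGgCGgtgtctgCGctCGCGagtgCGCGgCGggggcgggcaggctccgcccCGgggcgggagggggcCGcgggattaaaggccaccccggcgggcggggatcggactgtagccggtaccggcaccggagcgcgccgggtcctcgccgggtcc
UTF1: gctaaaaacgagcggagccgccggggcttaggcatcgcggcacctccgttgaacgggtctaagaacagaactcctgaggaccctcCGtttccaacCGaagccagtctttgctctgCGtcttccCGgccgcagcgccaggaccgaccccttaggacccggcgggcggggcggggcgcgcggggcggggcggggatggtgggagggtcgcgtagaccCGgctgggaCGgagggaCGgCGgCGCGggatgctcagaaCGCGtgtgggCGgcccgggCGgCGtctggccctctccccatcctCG
CETN1: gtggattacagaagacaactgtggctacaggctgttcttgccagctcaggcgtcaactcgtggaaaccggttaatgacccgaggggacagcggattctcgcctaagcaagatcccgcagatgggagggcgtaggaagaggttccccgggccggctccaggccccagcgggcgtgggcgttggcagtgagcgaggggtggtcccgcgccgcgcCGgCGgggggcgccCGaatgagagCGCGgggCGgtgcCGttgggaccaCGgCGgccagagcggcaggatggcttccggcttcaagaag
All of these promoters are rich in CpGs, with 54 in SOX12, 41 in DRD4, 47 in SLC9A3, 39 in UTF1 and 30 in CETN1. The box GGGCGG, searched on both strands and known as a binding motif of Sp1 family factors, matched 4 times in SOX12, 3 times in DRD4, 6 times in SLC9A3, 6 times in UTF1 and once in CETN1. Of 35116 RefSeq promoters of this length, 45.0% held the box at least once. A match describes letters and does not show that a factor binds.

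The ends were more methylated than the belts in every library. Mean methylation of the end CpGs, each CpG weighted equally, was 51.6%, 51.6% and 51.7% in SAM libraries 1, 2 and 3, and 51.6%, 51.7% and 51.8% in control libraries 1, 2 and 3. The belts of the same ends stood at 43.2%, 43.0% and 43.0% in the SAM libraries and 43.0%, 43.1% and 43.2% in the control libraries. No end value came near a belt value. Within libraries the ends exceeded the belts by 8.60 percentage points on average, with a range of 8.48 to 8.72 points over the 6 libraries (exact two-sided sign-flip p = 0.03125, the smallest that 6 libraries can give). The libraries read the same CpGs, so this p does not measure the spread between ends. The megabase between 1 and 2 Mb stood at 50.5%, and autosomal CpGs more than 10 Mb from either end at 33.97%. The higher mean came with a change in the makeup of levels. Among end CpGs 45.2% had a mean level over 80%, 13.9% lay between 20 and 80% and 41.0% lay under 20%. Among belt CpGs these shares were 35.5%, 15.5% and 49.1%. Both arms showed the difference. The p arm ends averaged 54.5% against 41.5% in their belts, and the q arm ends 49.8% against 44.1%.

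Within the outermost megabase the level did not fall steadily with distance. The first 100 kb, with 1179 CpGs on 32 ends, averaged 57.7%. The bins from there to 1 Mb ranged from 44.5% at 200 to 300 kb to 57.2% at 600 to 700 kb. These swings went with the share of CpGs in dense windows, which was 30.2% in the first 100 kb, 46.0% at 200 to 300 kb and 35.3% at 600 to 700 kb. Further inward the mean was 46.3% at 2 to 3 Mb and 36.9% at 9 to 10 Mb. The first 100 kb was also where dense and sparse DNA were closest to each other. CpGs in windows with 40 or more listed CpGs per kb averaged 38.5% there, the highest of all bins, and CpGs of sparse windows, those with 1 to 14 listed CpGs, averaged 64.7%, lower than in each other bin within 9 Mb of the end. Different ends fill different bins, and their part in these swings was not tested.

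**Figure D1:**
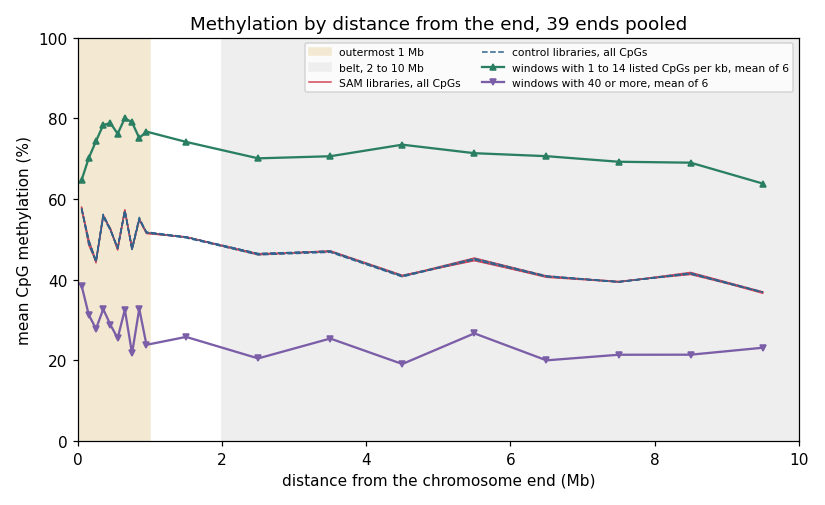
Mean CpG methylation (vertical axis, percent) against distance from the chromosome end (horizontal axis, Mb), pooled over 39 ends, in 100 kb bins within 1 Mb and 1 Mb bins beyond. The SAM and control lines overlie each other, from 57.7% in the first 100 kb to 36.9% at 9 to 10 Mb, and dense windows (lower line with triangles) and sparse windows (upper line with triangles) approach each other in the first 100 kb.

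Ends and belts held nearly equal shares of CpG-dense windows, and the excess at the ends was widest at intermediate density. Density was counted as the number of CpGs listed in any library per 1 kb window. Windows with 40 or more listed CpGs held 39.2% of the end CpGs and 39.2% of the belt CpGs. In windows with 15 to 39 listed CpGs, end CpGs stood at 57.4 to 57.7% over the 6 libraries and belt CpGs at 40.4 to 40.8%. At this density 51.4% of end CpGs and 33.1% of belt CpGs had a mean level over 80%. Between 1 and 2 Mb the share was 50.9%, so the zone next to the ends was alike in this. In windows with 40 or more, end CpGs stood at 28.1 to 28.5% and belt CpGs at 21.9 to 22.1%. In windows with 5 to 14 the values were 76.4 to 76.9% at the ends and 69.6 to 69.8% in the belts, and in windows with 1 to 4 they were 75.6 to 76.0% and 70.8 to 71.6%. Ends and belts did not overlap between libraries in any of the 4 density classes. With the difference taken inside these classes, the ends exceeded the belts by 9.68 points (exact two-sided sign-flip p = 0.03125).

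The 39 ends differed widely from each other. Their means ran from 22.8% to 75.0% with a median of 52.4% and an SD of 12.4 points between ends, while the means of their belts ran from 21.1% to 50.3% with an SD of 6.43 points. The 6 libraries agreed closely at each end, with a median SD of 0.433 points and a largest SD of 1.43 points. The highest ends were 8p at 75.0% (208 CpGs), 6p at 72.7% (162 CpGs) and 4p at 72.0% (586 CpGs). The lowest were 3q at 22.8% (162 CpGs), 20p at 28.2% (582 CpGs) and 8q at 30.5% (1757 CpGs). At 8p the libraries read 75.5%, 74.5% and 76.0% with SAM and 74.8%, 75.2% and 73.9% in controls. At 3q they read 22.9%, 22.7% and 22.9% with SAM and 22.6%, 22.04% and 23.9% in controls. Every library thus put these ends on opposite sides of the range.

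Of the 39 ends, 33 had a higher mean than their own belt and 31 of them did so in all 6 libraries. The widest gaps were at 9p, where the end exceeded its belt by 41.4 points, at 6p with 37.6 points and at 8p with 34.9 points. The 9p end was both dense and highly methylated. It stood at 66.7%, and 68.3% of its 145 CpGs lay in windows with 40 or more listed CpGs per kb. In the other direction, 6 ends were below their belt, 5 of them in all 6 libraries. The lowest differences were −15.7 points at 8q, −12.4 points at 3q and −7.33 points at 20p. At 8q, 64.8% of the end CpGs but 34.9% of the belt CpGs lay in such dense windows, and the difference inside density classes was −0.965 points. At 3q it remained at −9.74 points and at 20p at −7.71 points. Inside density classes 35 ends were above their belts and 4 below. The median gap over the 39 ends, without density classes, was 9.70 points.

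**Figure D2:**
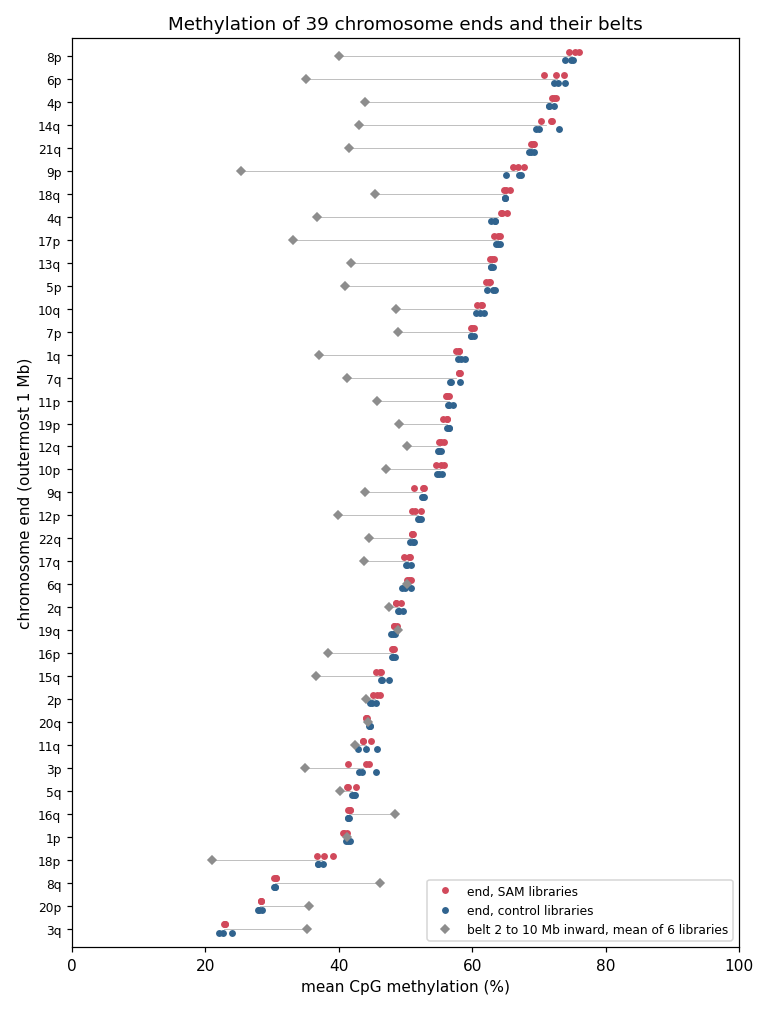
Mean CpG methylation (horizontal axis, percent) of each of 39 chromosome ends (rows, ordered by mean), with 1 point per SAM library above and 1 per control library below, and a grey diamond for the mean of the belt 2 to 10 Mb inward. The ends spread from 22.8% (3q) to 75.0% (8p), and 33 of them lie to the right of their diamond.

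Over CpGs of all densities, the excess was wider outside placed promoters than inside them. RefSeq promoters were placed on the listed positions where at least 8 of their CpGs, and at least 50% of them, matched in spacing at a single place on the chromosome. This put 266 promoters in the ends and 960 in the belts. Only those with equal spacing to another placed promoter in both builds were used, 255 in the ends and 934 in the belts. The 1718 end CpGs inside these stretches averaged 14.1% and the 6807 belt CpGs inside them 13.3%, a difference of 0.787 points (exact two-sided sign-flip p = 0.03125). With a minimum of 20 reads that difference turned to −2.26 points, so its direction depends on the read minimum. Outside placed promoters, 21565 end CpGs averaged 54.7% and 62257 belt CpGs 46.3%, a difference of 8.34 points (exact two-sided sign-flip p = 0.03125). The gap outside exceeded the gap inside by 7.55 points, with a range of 7.11 to 7.81 points over the libraries (exact two-sided sign-flip p = 0.03125). Inside placed promoters the gap had opposite signs at 2 densities, so the pooled value averages over them. At a density of 15 to 39 listed CpGs per kb, the 419 end CpGs inside placed promoters averaged 26.7% and the 1814 belt CpGs 14.3%, a gap of 12.4 points. Outside placed promoters the same windows averaged 59.5% at the ends and 43.3% in the belts, a gap of 16.2 points. In windows with 40 or more, the 1282 end CpGs inside placed promoters averaged 9.18% and the 4808 belt CpGs 12.6%, a gap of −3.42 points, and outside them the averages were 31.4% at the ends and 24.01% in the belts. The exact two-sided sign-flip p was 0.03125 for each of these 4 gaps, the smallest that 6 libraries allow, and the libraries share their CpGs. The stretches outside still hold promoters that could not be placed.

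**Figure D3:**
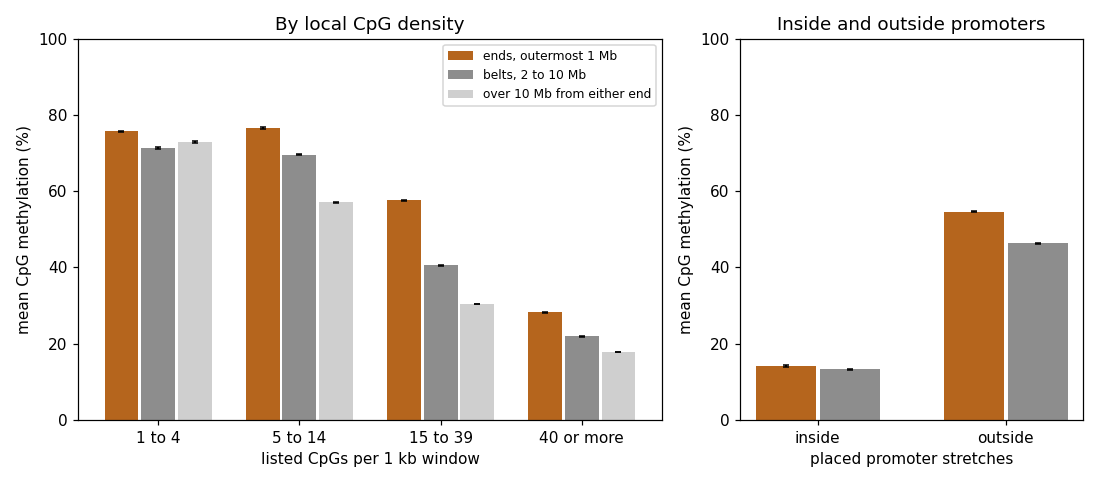
Mean CpG methylation (vertical axes, percent; bars are means and error bars SDs over 6 libraries) by the number of listed CpGs per 1 kb window (left) and inside or outside placed promoters (right), with the ends first. In windows with 15 to 39 listed CpGs the ends reach 57.6% and the belts 40.6%; inside promoters the bars stand at 14.1% and 13.3%.

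Most placed promoters of end genes were unmethylated. Only promoters with at least 8 CpGs, 20419 of 33725 on the autosomes, could be placed, so CpG-poor promoters are left out. Of 155 distinct promoter stretches with at least 5 CpGs read in all libraries, 125 (80.6%) averaged under 20%, 19 (12.3%) between 20 and 80% and 11 (7.10%) over 80%. In the belts, 511 of 613 (83.4%) averaged under 20% and 35 (5.71%) over 80%. The median promoter stood at 0.656% at the ends and 0.568% in the belts.

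Housekeeping genes near the ends had unmethylated promoters with 1 exception. Of 18 such genes listed from textbook knowledge, 7 promoters could be measured and 6 were under 20%. In PSMD13, which encodes a proteasome subunit, no methylated read was found in a coverage of 1614, summed over 6 CpGs and the 6 libraries. That would allow a level of up to 0.186% if all counts were independent, and covers counting error only. A read counts at each CpG it covers, so the true limit is wider. SDHA, a subunit of succinate dehydrogenase, averaged 0.174%, the Src family kinase gene YES1 0.242%, the splicing regulator PTBP1 0.0977%, the ubiquitin-conjugating enzyme gene CDC34 0.741% and the thymidine phosphorylase gene TYMP 3.08%. The exception was RTEL1, a DNA helicase that acts at telomeres. Its promoter read 22.03%, 23.5% and 24.9% in the SAM libraries and 21.0%, 26.1% and 18.2% in the controls, and the groups overlapped. Its 6 CpGs were uneven, with means of 0.0339% to 41.3%.

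Regulatory genes held both states. Among 16 transcription factor genes 3 promoters could be measured. HES4, a basic helix-loop-helix repressor, averaged 0.112%, and SOX12 averaged 0.363%. UTF1 stood at 57.6%, 55.7% and 56.3% in the SAM libraries and 50.2%, 55.2% and 69.1% in the controls, with overlapping groups. Among 15 receptor, ligand and channel genes 4 could be measured. OPRL1, the nociceptin receptor, averaged 0.272%, and PDGFA, a platelet-derived growth factor chain, 0.743%. DRD4 stood at 52.3%, 38.1% and 43.1% in the SAM libraries and 42.7%, 40.8% and 37.0% in the controls. SLC9A3 stood at 63.4%, 62.3% and 66.1% in the SAM libraries and 61.4%, 66.6% and 71.1% in the controls. The groups overlapped in both genes. Of 5 alpha globin genes of the 16p end 1 was placed, with fewer than 5 CpGs common to all libraries, and none of the 5 neutrophil granule genes of the 19p end was placed.

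Single CpGs differed within a few bases in SLC9A3 and UTF1, and many CpGs of UTF1 and DRD4 were themselves intermediate. In the SLC9A3 sequence above, counted from base 1 at its 5′ end, the CpGs at bases 20 to 34 averaged 91.9 to 98.4%. Those at bases 105 and 107 averaged 4.77% and 5.26%, those at bases 161 to 178 averaged 96.5% or more, and the one at base 216 averaged 6.198%. In SLC9A3 methylated CpGs thus lay on both sides of the unmethylated pair. In UTF1 the 4 CpGs at bases 86 to 124 averaged 94.2 to 98.8%, the one at base 216 averaged 18.5% and the one at base 299 averaged 99.4%. Between bases 216 and 277 the UTF1 levels changed from CpG to CpG and between libraries. In DRD4 the CpG at base 184 averaged 3.93% and the one at base 257, just past the start, 70.4%. The DRD4 CpGs at bases 250 to 296 all averaged 40.9 to 70.4%. Mean reads per CpG over the libraries were 35.8 to 192 in DRD4, 26.2 to 141 in SLC9A3, 34.1 to 220 in UTF1 and 16.8 to 579 in CETN1. Single values in these promoters thus carry wide counting error. The SLC9A3 CpG at base 216 had as few as 10 reads and ran from 0 to 23.3% over the libraries. All 27 CpGs of SOX12 averaged at most 3.27%. CETN1 averaged 91.6% over 9 CpGs, the lowest of them 72.8%.

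**Figure D4:**
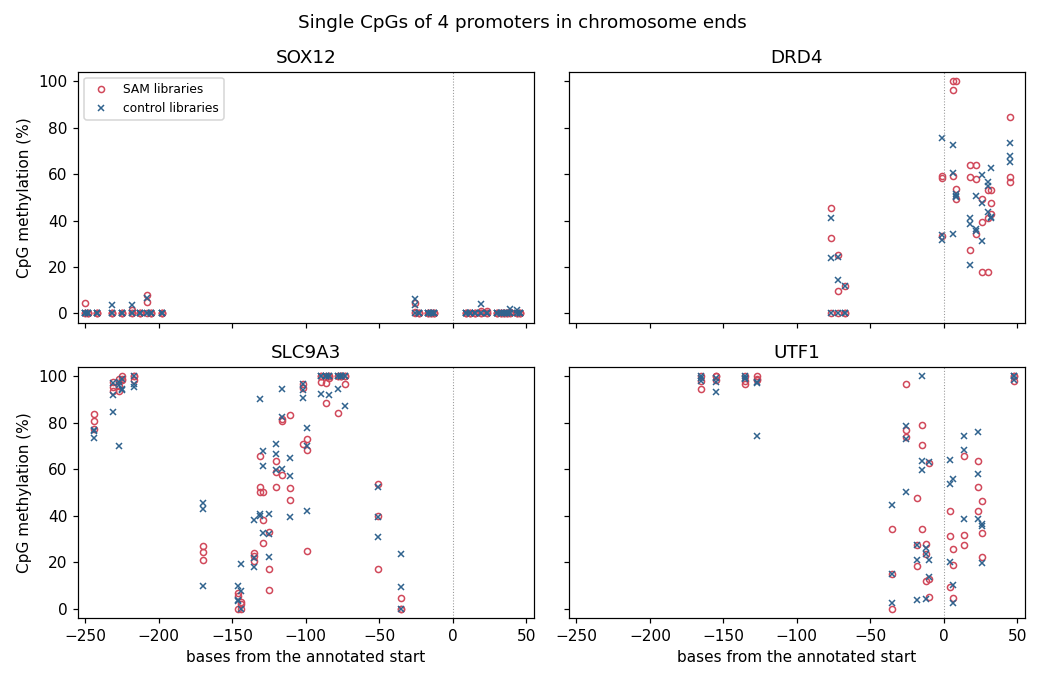
Methylation of single CpGs (vertical axes, percent) against the distance from the annotated start (horizontal axes, bases) in 4 end promoters, with open circles for SAM libraries and crosses for control libraries. SOX12 lies along the bottom, SLC9A3 alternates between 98.4% and 4.77% within its upstream part, UTF1 is high at its outer CpGs and mixed near the start, and DRD4 is low upstream and intermediate past the start.

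SAM did not shift the mean of the chromosome ends by more than the spread between libraries. The end CpGs averaged 51.65% ± 0.068 (SD, n = 3) in SAM libraries and 51.69% ± 0.088 (SD, n = 3) in control libraries. SAM minus control was −0.0403 ± 0.0643 points (standard error), with overlapping groups (exact two-sided permutation p = 0.6, where 3 against 3 cannot go below 0.10). The effect at the ends minus the effect in the belts was −0.0348 points (exact two-sided permutation p = 0.7). Weighting by coverage gave a difference of −1.66 points at the ends, again with overlapping groups. Libraries were divided by read coverage into 2 sets, SAM 1 with controls 1 and 3, and SAM 2 and SAM 3 with control 2. Log2 coverage of 1 kb windows, relative to the window mean, correlated at 0.0683 to 0.836 within sets and −0.887 to −0.106 between them. Agreement within a set was thus uneven. SAM minus control at the ends, each CpG weighted equally, was −0.0660 points in the first set and −0.00790 points in the second.

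Among highly methylated end CpGs the SAM libraries were all above the controls. The 10514 end CpGs over 80% averaged 96.3%, 96.6% and 96.4% in SAM libraries 1, 2 and 3, and 96.2%, 96.2% and 96.1% in control libraries 1, 2 and 3. The difference was 0.290 points with a standard error of 0.0982 (exact two-sided permutation p = 0.10, the smallest possible). Without SAM library 2 it was 0.168 points. It was 0.164 points in the coverage set of SAM 1 and 0.362 points in the other. The belt CpGs over 80% averaged 96.0% with SAM and 95.7% in controls, a difference of 0.313 points, also without overlap. Such CpGs more than 10 Mb from either end differed by 0.410 points, again without overlap. The ends and belts were not tested against each other in this class. End CpGs of the lower level classes went the other way, with overlapping groups. There SAM minus control was −0.857 points at 20 to 80% (exact two-sided permutation p = 0.2). Under 20% it was −0.128 points (exact two-sided permutation p = 0.3). Among end CpGs over 80% in windows with 40 or more listed CpGs per kb, the difference was 0.00780 points, with overlap. In the densest windows of the ends, with 40 or more listed CpGs per kb, SAM libraries stood at 28.3%, 28.1% and 28.1% and controls at 28.3%, 28.3% and 28.5%. The groups did not overlap before rounding, and the difference was −0.220 points (exact two-sided permutation p = 0.10). With each library's own CpGs it turned to 0.0880 points.

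SAM and control differed by at most 1.43 points at single ends. SAM was higher at 21 ends and lower at 18, and the groups did not overlap at 3 of 39 ends, while 12.8% of the 39 belts did not overlap. The most positive differences were at 4q and 7q. At 4q the end read 64.4%, 65.2% and 64.3% with SAM and 63.4%, 63.4% and 62.8% in controls, a difference of 1.43 points with a standard error of 0.33 and no overlap. Leaving out each library in turn gave 1.17 to 1.59 points. At 7q the difference was 0.831 points, with overlap. It was 1.32 points without control library 2, with no overlap, and 0.533 points without control library 3. Within the coverage set of SAM 2 and SAM 3 it was −0.189 points. The most negative were −0.759 points at 15q and −0.689 points at 3p, both with overlap. At 15q it was −0.383 points without control library 1, and at 3p, with 51 CpGs, its sign turned without SAM library 3 (0.290 points) and without control library 1 (0.0844 points). Beside 4q, the ends without overlap were 19p at −0.464 points and 20q at −0.485 points. Without SAM library 2 the value at 19p was −0.261 points.

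**Figure D5:**
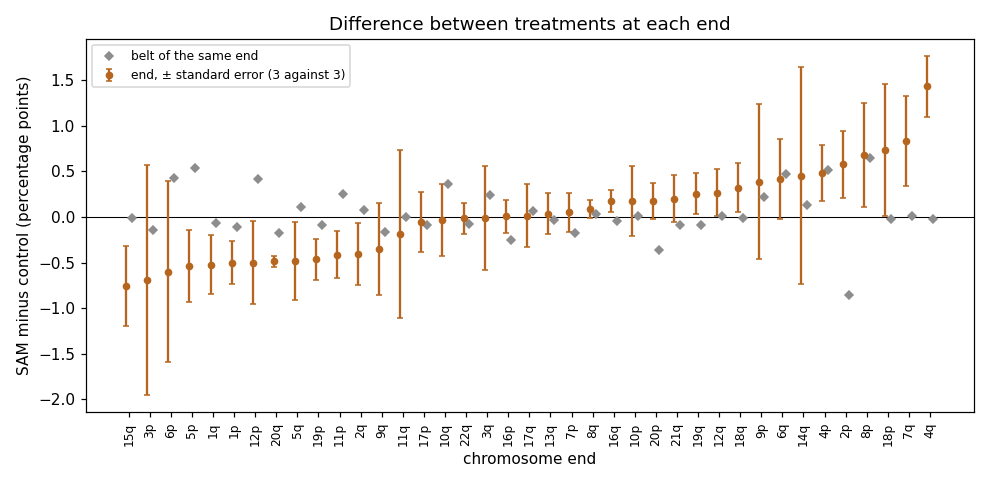
SAM minus control (vertical axis, percentage points) at each of 39 chromosome ends (horizontal axis, ordered by difference), with error bars of 1 standard error from 3 against 3 libraries, and a grey diamond for the belt of the same end. The differences run from −0.759 points (15q) to 1.43 points (4q).

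At the scale of 1 kb tiles no end tile was called between SAM and control. Tiles were tested where they held at least 3 CpGs and, over the libraries, both methylated and unmethylated reads. Of 33583 such tiles, edgeR's quasi-likelihood test on methylated and unmethylated reads called 0% at an adjusted p under 0.05, and 0 of 2400 end tiles. limma on log2 ratios likewise called 0, with 100 end tiles (4.17%) at an unadjusted p under 0.05, against 4.23% of all tiles. In edgeR 68 end tiles (2.83%) had an unadjusted p under 0.05, against 3.13% of all tiles. Of these 44 were higher with SAM (1.83%, against 1.66% of all tiles) and 24 lower (1%, against 1.47%). This lean did not hold without SAM library 3, where 29 were higher and 30 lower, nor without control library 3, where 23 were higher and 31 lower. The groups did not overlap in 195 end tiles (8.13%), against 8.28% of all tiles, with 120 higher with SAM (5%, against 4.81%) and 75 lower (3.13%, against 3.47%). The shares at the ends were thus close to those of the whole table.

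The 5 end tiles with the smallest p had small differences and lay near 0 or 100%, and each had an edgeR adjusted p of 0.9999. Other end tiles differed more without being called. In 8 of 2400 end tiles SAM and control differed by more than 20 points, with extremes of −23.9 and 26.8 points. Over all 33583 tiles 120 did so. The tile at chr10:529001-530000 read 100% in SAM libraries 1 and 2 and 99.8% in SAM library 3, against 94.4%, 97.4% and 95.1% in controls. The tile at chr9:140395001-140396000 read 100% in each SAM library and 96.2%, 97.3% and 98.9% in controls. The tile at chr18:95001-96000 was likewise at 100% in each SAM library, and 98.4%, 95.3% and 97.7% in controls. These 3 were fully methylated or nearly so with SAM. The tile at chr16:730001-731000 held 4, 9 and 8 methylated reads with SAM, of 3788, 2337 and 2311, and 1, 0 and 0 methylated reads in controls, of 7499, 670 and 1226. The tile at chr5:180616001-180617000 went the other way, with 5, 0 and 2 methylated reads of 964, 390 and 2517 with SAM and 20, 18 and 18 of 1055, 634 and 811 in controls. All 5 are hg19 positions, and reads were summed over the CpGs of a tile, so a read counts at each CpG it covers.

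Few placed promoters of end genes separated the treatments, and their share was close to that of placed belt promoters. The groups did not overlap in 10 of 155 end promoters (6.45%), against 6.85% of belt promoters, and SAM was higher in 79 and lower in 73. Of the listed genes only PDGFA was among them, with 1.12%, 0.699% and 2.13% in the SAM libraries and 0.504% in control 1. In controls 2 and 3 it had no methylated read in a coverage of 739 and 1128, summed over its CpGs. That would allow levels of up to 0.406% and 0.266% if the counts were independent, and higher ones where a read covers several CpGs. The most negative promoter difference, found after the values were seen, was at PCSK6, a proprotein convertase gene of the 15q end. It read 25.9%, 23.3% and 26.2% in the SAM libraries and 33.3%, 28.4% and 30.9% in the controls, a difference of −5.70 points without overlap. It was −3.59 points in the coverage set of SAM 2 and SAM 3. The 23 CpGs of this promoter are among the 186 of the 15q end. Its difference and the −0.759 points at that end are thus not separate observations. The most positive promoter difference was at PRR35 of the 16p end, which read 48.2%, 33.8% and 34.4% in the SAM libraries and 26.4%, 37.2% and 24.7% in the controls, with overlap.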

How the data were processed

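CpG methylation was profiled in 3 SAM and 3 control libraries of PC-3 DNA. For each cytosine the deposited lists hold a read count (coverage) and the percent of those reads that carry C or T, per the file headers. CASAVA 1.8.2, FastQC 0.10.0, Bismark 0.7.4, methylKit 0.5.3 and hg19 are named, per the submitters' processing notes, with no role or order. Not given in the sources used here are the library type, read filters and duplicate removal. The lowest deposited coverage was 10 reads, so CpGs with fewer reads are not represented, and the ends are seen only where all libraries were read.

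Methylated reads were recovered from coverage and percent C, strands were joined, and CpGs with at least 10 reads in each of the 6 libraries were kept. Of 86219 CpGs listed at the ends in any library, 27.0% were kept (26.2% in the belts). Levels were compared between zones by an exact sign-flip test over libraries, and between SAM and control by an exact permutation test, both two-sided. Tiles of 1 kb with at least 3 CpGs were tested over all chromosomes with edgeR 4.0.16 (quasi-likelihood, Benjamini-Hochberg) and limma 3.58.1 (log2 ratio of methylated to unmethylated reads, pseudocount 1) in R 4.3.3. Tiles with no methylated or no unmethylated read over the libraries used were left out. On simulated data with counting error only, for SAM against control on 33459 tiles, edgeR recovered 99% of tiles shifted by 20 points and 100% of those shifted by 50, with 10 false calls. Only tiles of intermediate level were shifted, and a spread between libraries was not simulated. These recoveries thus do not give what the test detects in the real tiles.

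No hg19 annotation was used. RefSeq promoters (GRCh38.p14) were placed by CpG spacing, and 255 of 266 at the ends kept the same spacing to a neighbour in both builds. Placed promoters that did not were left out. Promoters with at least 5 common CpGs were averaged. The text names the 5 end tiles with the smallest p when fewer than 5 pass, the 3 highest and 3 lowest ends by level and by gap to the belt, the 2 ends at each extreme of SAM minus control, and promoters from 5 gene lists. The members and lists were chosen with earlier results of these data known. The promoter comparisons, the SAM comparison in dense windows and the settings tried for named ends, tiles and promoters were added after the data were seen. The labels' replicate numbers did not pair libraries (correlations of deviations 0.0112, −0.00620 and −0.0387). Other settings tried were 20 reads, coverage weights, own CpGs, ends of 500 kb or 2 Mb, equal weight per end, CpGs over 10 Mb from an end, other tile minimums, a replicate block, coverage sets, and leaving out each library. The remaining steps ran in Python 3.11.15 (scipy 1.17.1, numpy 2.4.6, pandas 2.3.3).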

Additional observations from a re-analysis of the deposited data

How the results depend on the processing

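The excess of the ends over the belts kept its direction under each setting with all 6 libraries. Its exact sign-flip p stayed at 0.03125, which follows whenever all 6 libraries share a sign. This p shows agreement between libraries of 1 cell line and does not measure the spread between ends. The excess was 7.02 points over own CpGs per library, 11.6 points with equal weight per end and 17.7 points against CpGs over 10 Mb from an end. With 1 library left out, 5 libraries cannot go below an exact sign-flip p of 0.0625. The excess was then 8.58 to 8.62 points, the density-standardised one 9.65 to 9.70, the one outside promoters 8.31 to 8.37, the one inside promoters 0.718 to 0.815, and outside minus inside 7.502 to 7.64. Outside minus inside was 11.4 points at 20 reads, and 7.91 with coverage weights, with libraries from 1.03 to 13.4. Inside promoters it reversed to −2.26 points at 20 reads and was 1.32 points with coverage weights (exact sign-flip p = 0.594); the cause was not tested.

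SAM minus control at the ends lay within library spread, and its sign was not stable. It was 0.00618 points for 500 kb, 0.00815 for 2 Mb and 0.0202 with equal weight per end, and −0.0769 to 0.00899 with 1 library left out. Ends minus belts for this effect reversed to 0.0214 points at 20 reads, 1.02 with coverage weights, 0.363 with own CpGs, 0.0117 for 500 kb, 0.0137 for 2 Mb and 0.0653 in the coverage set of SAM 2 and 3, and was −0.104 to 0.0160 with 1 library left out. In dense windows it reversed to 0.0880 points with own CpGs. The causes were not tested. End tiles with an unadjusted p under 0.05 numbered 24 of 942 for 500 kb (2.55%) and 151 of 5094 for 2 Mb (2.96%), against 3.13% of all tiles. They numbered 24 of 1540 with at least 5 CpGs per tile (1.56%, against 2.90% of all tiles) and 44 of 1630 at 20 reads (2.70%, against 3.15%). With the replicate block 0 end tiles were called, 57 (2.38%, against 3.53%) had an unadjusted p under 0.05, and no other call changed.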

Other observations

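In the outermost 100 kb, 125 tiles of 1 kb on 31 ends were tested, of which 66 averaged over 80% (52.8%), 37 under 20% (29.6%) and 22 between (17.6%). Among all 2400 tested end tiles those shares were 53.9%, 26.5% and 19.6%, and among all tested tiles 40.4%, 41.4% and 18.3%. Tiles with no methylated or no unmethylated read are not in these shares. At 4q the 2 tiles at the last listed positions, chr4:191042001-191043000 and chr4:191043001-191044000 (hg19), read 97.8% and 98.1% with SAM and 98.0% and 97.7% in controls. About 107 kb inward a tile of 26 CpGs at chr4:190936001-190937000 read 53.2% with SAM and 53.0% in controls. The tile at chr4:190940001-190941000 read 94.7% with SAM and 89.4% in controls, with an edgeR adjusted p of 0.9999. These tiles were picked after their values were seen.

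The 4 promoters that follow were chosen after their values were seen. SLC49A3, a solute carrier gene of the 4p end, averaged 98.5% with SAM and 98.1% in controls. KLHDC7B-DT of the 22q end averaged 97.4% with SAM and 97.9% in controls, and LINC01925 of the 18p end 97.6% in both. RSPO4, an R-spondin gene of the Wnt pathway in the 20p end, was lower, at 79.1% with SAM and 77.4% in controls. Its end was among the lowest in mean level.

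Across the 39 ends, which share their libraries, the mean level was weakly related to the share of CpGs in dense windows (Pearson's r −0.35, Spearman's rho −0.39) and hardly to the mean of the belt (r 0.07). These are descriptions with no test.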
